A study of Mus musculus with 6 samples.

Results

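The goblet cell mucus genes were taken as Muc2, Fcgbp, Zg16, Tff3, Retnlb, Agr2, Spdef, Atoh1, Muc4 and Muc13. They were found by gene name among the gene probes of the array. The 10 genes have 16 of the 56605 gene probes, and all 10 were among the 19090 genes tested.

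The tissue was tumor-bearing colon of C57BL/6 mice, with 1 one-color Agilent array per mouse. All 6 mice were male, were bought at an age of 6 to 8 weeks, and had colitis-associated tumors induced by a 10 μg/g injection of azoxymethane (AOM), a carcinogen, with 2% dextran sodium sulfate (DSS), which injures the colon epithelium, in the drinking water for 5 days. 3 mice received RG@M-γ-CD, the multi-kinase inhibitor regorafenib (RG) carried in a mannose-modified γ-cyclodextrin, by mouth at 30 μg/g, which holds 10 μg/g of RG. 3 mice received phosphate-buffered saline (PBS). Treatment lasted 21 days and was followed by 14 days without it. The mice carried no transgene, and the pieces taken held tumor together with the rest of the colon wall, so that the values are those of a mixture of cells.

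Goblet cells are the secretory cells of the intestinal epithelium that make mucus. Their gel-forming mucin is folded in the endoplasmic reticulum, packed into granules and released into the lumen, where it forms a layer with other granule proteins that keeps bacteria away from the epithelium. Membrane mucins sit instead on the surface of epithelial cells, goblet and absorptive cells alike. Goblet cells arise from crypt progenitors under a cascade of transcription factors, and loss of goblet cells and of mucus is a familiar feature of DSS colitis and of colitis-associated tumors.

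The measurement rests on the oligonucleotides that stand for these genes. Muc2 had a pair of probes far apart on its transcript, and Fcgbp and Zg16 were the members that varied most after Retnlb, so their probes are shown. The probe of Muc2 that starts at base 1986 of the transcript (chr7:148883009-148883068, mm9, plus strand), the probe of Fcgbp that starts at base 7667 (chr7:28905517-28905576, mm9, plus strand) and the probe of Zg16 that starts at base 409 (chr7:134193837-134193896, mm9, minus strand) read, in 60 bases each:
Muc2: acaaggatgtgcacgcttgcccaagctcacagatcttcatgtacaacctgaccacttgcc
Fcgbp: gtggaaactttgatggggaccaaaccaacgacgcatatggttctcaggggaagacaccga
Zg16: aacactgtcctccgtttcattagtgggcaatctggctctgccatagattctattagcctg
Each of these 3 probes could be read through without a stop codon in at least 1 of its 3 forward frames. The same held for every other member probe, so it sets none of them apart.

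The brighter Muc2 probe, which starts at base 7304 (chr7:148940536-148940595, mm9, plus strand), and the probes of Tff3 (base 370, chr17:31262279-31262338, mm9, minus strand) and Spdef (base 1755, chr17:27851401-27851460, mm9, minus strand) hold AATAAA, the letters of the polyadenylation signal. AATAAA was searched for on the sense strand and stands in 9.77% of all 56605 gene probes and in 3 of the 16 member probes. The 30 bases of each probe around it, with AATAAA in capitals, read:
Muc2: ttgctttccgatAATAAActcaggcatagc
Tff3: ggagtcctgaagAATAAAgacctcacagcc
Spdef: tgccctggggatggatAATAAAgacgtaag
The Muc2 probe at base 1986, shown above, lies upstream of the one at base 7304 in the same transcript.

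The promoters of the 2 central mucus proteins are also given. The 250 bases before the start of the gene are from RefSeq (GRCm38.p6), a build that differs from that of the probes, and 7 of the 10 members have an entry there. The Muc2 stretch lies at chr7:141690090-141690339 on the plus strand and the Fcgbp stretch at chr7:28070986-28071235 on the plus strand. Capitals mark TATAAA, the TATA box letters, and CAGNTG, an E-box form of the kind read by basic helix-loop-helix factors such as Atoh1, on either strand:
Muc2: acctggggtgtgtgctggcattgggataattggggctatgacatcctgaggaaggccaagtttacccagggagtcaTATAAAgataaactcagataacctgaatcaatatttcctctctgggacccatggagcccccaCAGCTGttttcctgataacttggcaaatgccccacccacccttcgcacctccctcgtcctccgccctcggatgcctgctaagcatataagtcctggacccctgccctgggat
Fcgbp: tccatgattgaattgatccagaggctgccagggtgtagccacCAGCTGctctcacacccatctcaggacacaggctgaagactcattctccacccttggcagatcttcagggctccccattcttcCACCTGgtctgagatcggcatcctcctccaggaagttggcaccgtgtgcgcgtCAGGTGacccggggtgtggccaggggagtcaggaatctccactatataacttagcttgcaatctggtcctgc
The Muc2 stretch holds 1 TATAAA and 1 CAGNTG and the Fcgbp stretch 3 CAGNTG. The 7 members with an entry have 8 such stretches, of which 2 hold TATAAA and 4 hold CAGNTG. Those of Atoh1, Agr2, Muc4 and Spdef hold no CAGNTG. Of 32851 promoters of this length in the table, 12.4% hold TATAAA and 44.8% hold CAGNTG, so the matches are a description of the letters only.

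Between 28103 and 31219 gene probes per array were well above background, and 0 spots were saturated. All 6 arrays were on 1 slide and 1 scan. The upper row held the 3 RG@M-γ-CD arrays and PBS replicate 1, the lower row PBS replicates 2 and 3. A heat map of the study clusters arrays 6, 7 and 8 (RG@M-γ-CD replicates 2 and 3 and PBS replicate 1 by the labels) apart from arrays 5, 10 and 11 (RG@M-γ-CD replicate 1 and PBS replicates 2 and 3). Groups follow the labels here, and the other grouping is given beside the results with neither side named as treated. Every level below is a log2 intensity relative to the 75th percentile of its array, so that 0 is that percentile and 1 unit is a factor of 2, and every difference is on the same log2 scale with PBS subtracted from RG@M-γ-CD. Levels of different probes are not compared with each other.

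None of the 10 mucus genes differed between RG@M-γ-CD and PBS beyond the spread of the mice. The limma test called 0 of 10 members at an adjusted p below 0.05, as it called 0% of the 19090 genes tested. At an unadjusted p below 0.05 it held 0 of 10 members against 2.19% of all genes, and the methods' t-test called 0 members after adjustment. All 10 mean differences were below 0, between -0.15 for Spdef and -1.34 for Retnlb, with a median of -0.29. Among all genes 52.8% lay below 0, with a median of -0.01. The 2 groups overlapped in all 10 members, where they did not overlap in 4.57% of all genes. In an exact two-sided permutation test of 3 against 3 arrays the members' p ranged from 0.3 to 0.8, and this design cannot go below 0.1. In tissue pieces, fewer goblet cells and less RNA per goblet cell cannot be told apart.

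**Figure D1:**
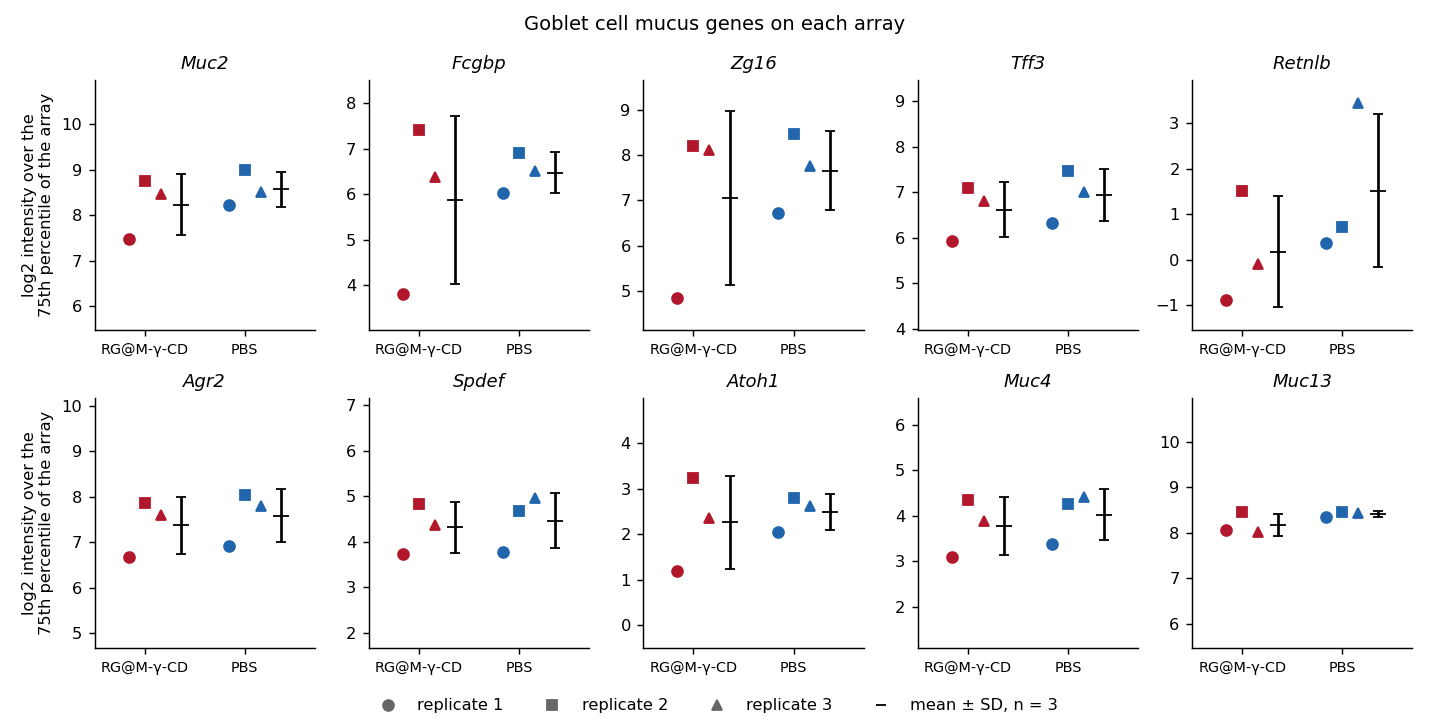
Level of each of the 10 mucus genes on each array as log2 intensity over the array's 75th percentile (vertical axis, spanning the same number of units in every panel), for RG@M-γ-CD (red) and PBS (blue). Symbols stand for replicates and the bar for mean ± SD (n = 3); the red circle, RG@M-γ-CD replicate 1, is the lowest point in every panel but that of Muc13, and the groups overlap in all 10.

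Retnlb, Zg16 and Fcgbp had the widest ranges over the 6 mice. Muc2, the gel-forming mucin that builds the colonic mucus layer, measured 7.47, 8.76 and 8.48 in the RG@M-γ-CD mice and 8.23, 8.99 and 8.51 in the PBS mice. Replicate 1 of the treated mice was the lowest of the 6, and the other 2 RG@M-γ-CD mice lay within the range of the PBS mice. The group means were 8.24 ± 0.68 and 8.58 ± 0.39 (SD, n = 3), a difference of -0.34 (SE 0.38, limma adjusted p = 1.0) with a 95% interval from -1.25 to 0.57.

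Fcgbp, a large mucus protein, measured 3.81, 7.40 and 6.38 in the RG@M-γ-CD mice and 6.02, 6.90 and 6.50 in the PBS mice. The lowest and the highest value both belonged to RG@M-γ-CD mice, 12-fold apart. The difference of the means was -0.61 (SE 0.87, limma adjusted p = 1.0), with a 95% interval from -2.71 to 1.5.

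Zg16, a lectin of goblet granules that binds Gram-positive bacteria, measured 4.85, 8.20 and 8.11 in the RG@M-γ-CD mice and 6.73, 8.47 and 7.77 in the PBS mice. The low values were those of RG@M-γ-CD replicate 1 and PBS replicate 1, and the other 4 mice lay between 7.77 and 8.47. The mean difference was -0.60 (SE 0.96, limma adjusted p = 1.0), and the span over the 6 mice was 12.3-fold.

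Tff3, the trefoil peptide that goblet cells secrete with their mucin and that aids the repair of the epithelium, measured 5.94, 7.10 and 6.81 in the RG@M-γ-CD mice and 6.33, 7.48 and 7.01 in the PBS mice. Replicate 1 of each group was again lowest. The mean difference was -0.33 (SE 0.40, limma adjusted p = 1.0) and the span 2.91-fold.

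Retnlb, a resistin-like protein that goblet cells secrete on contact with bacteria and in type 2 immune responses, measured -0.88, 1.51 and -0.10 in the RG@M-γ-CD mice and 0.38, 0.72 and 3.45 in the PBS mice. A single mouse, PBS replicate 3, stood high, 20.1-fold above the lowest. The mean difference of -1.34 (SE 0.95, limma adjusted p = 1.0) was the farthest from 0 among the members and came to -0.37 without that mouse.

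Agr2, a protein disulfide isomerase of the endoplasmic reticulum that Muc2 needs for its folding, measured 6.66, 7.86 and 7.59 in the RG@M-γ-CD mice and 6.92, 8.03 and 7.79 in the PBS mice. Replicate 1 of each group lay about 1 unit below the other 2, and this gap was wider than the mean difference of -0.21 (SE 0.41, limma adjusted p = 1.0).

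The transcription factors kept the same order of arrays at the low end. Atoh1, the basic helix-loop-helix factor that commits progenitors to the secretory fate, measured 1.20, 3.24 and 2.36 in the RG@M-γ-CD mice and 2.04, 2.80 and 2.63 in the PBS mice, a mean difference of -0.23 (SE 0.52). Spdef, the ETS factor that acts after Atoh1 in goblet cell maturation, measured 3.73, 4.84 and 4.38 against 3.78, 4.67 and 4.95, a mean difference of -0.15 (SE 0.40). For Spdef, RG@M-γ-CD replicate 1 lay only 0.05 below PBS replicate 1, whereas for Atoh1 it lay 0.85 below. Both had a limma adjusted p of 1.0.

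Muc13, a membrane mucin of the colon surface, had the narrowest range of the 10. It measured 8.05, 8.45 and 8.01 in the RG@M-γ-CD mice and 8.33, 8.46 and 8.44 in the PBS mice, a span of 1.36-fold. It was the only member whose lowest value was not that of RG@M-γ-CD replicate 1, which here lay 0.04 above replicate 3, and its mean difference was -0.24 (SE 0.18, limma adjusted p = 1.0). Muc4, the other membrane mucin, measured 3.08, 4.34 and 3.87 in the RG@M-γ-CD mice and 3.37, 4.26 and 4.42 in the PBS mice, a mean difference of -0.25 (SE 0.41, limma adjusted p = 1.0), with replicate 1 of each group lowest as in Tff3 and Agr2.

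A single array stood at the low end of most mucus genes. RG@M-γ-CD replicate 1 was the lowest of the 6 arrays in 9 of 10 members, and it was the lowest in 18.8% of all genes tested. It lay below the mean of the other 5 arrays by 0.29 (Muc13) to 3.0 (Zg16) log2 units, which is 8.01-fold in Zg16, 7.10-fold in Fcgbp, 4.21-fold in Retnlb and 2.17-fold in Muc2. PBS replicate 1 was the second-lowest array in 8 of 10 members. The highest array was PBS replicate 2 in 5 members, PBS replicate 3 in 3 and RG@M-γ-CD replicate 2 in 2. The range over the 6 arrays had a median of 1.53 in the members and of 0.72 in all genes.

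**Figure D2:**
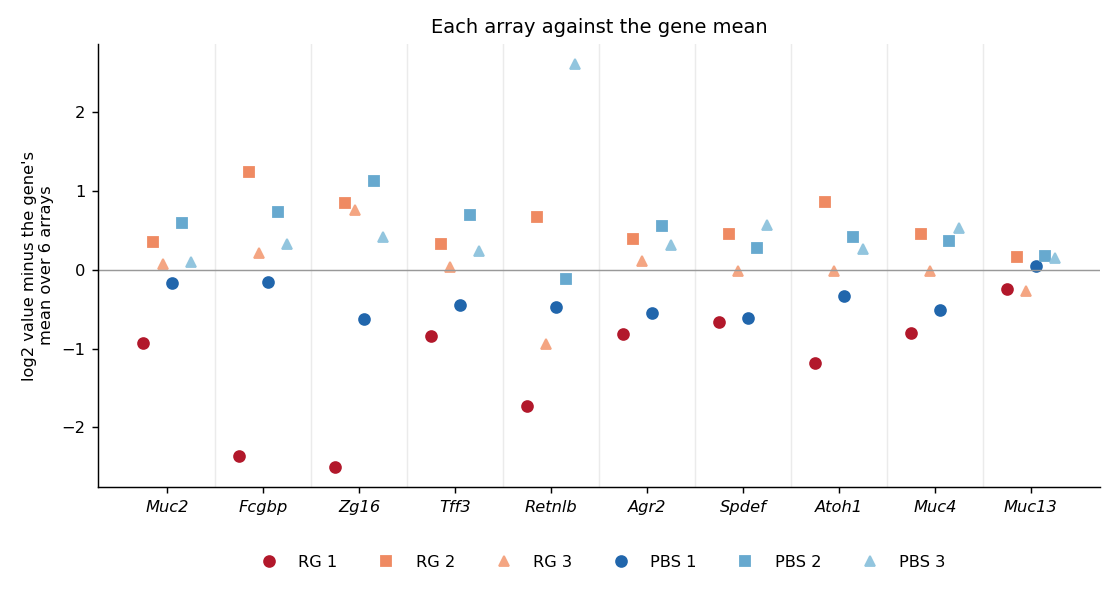
Log2 value of each mucus gene on each array minus that gene's mean over the 6 arrays (vertical axis), with RG for RG@M-γ-CD. The dark red circles, RG@M-γ-CD replicate 1, lie at the bottom in 9 of 10 genes, down to -2.50 in Zg16, and the dark blue circles, PBS replicate 1, lie next to them in most genes.

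RG@M-γ-CD replicate 1 is left out here after its low values in these genes were seen, so a rise of their differences follows from that choice. Over all genes, RG@M-γ-CD replicate 2 lay farther from the median array (median absolute deviation 0.31) than RG@M-γ-CD replicate 1 (0.18). Without RG@M-γ-CD replicate 1 the difference lay above 0 in 8 of 10 members, against 45.2% of all genes, and below 0 in 2, against 54.8%. The difference came to 0.04 (SE 0.27) in Muc2, 0.42 (SE 0.39) in Fcgbp, 0.50 (SE 0.49) in Zg16, 0.01 (SE 0.35) in Tff3, 0.15 (SE 0.36) in Agr2, 0.14 (SE 0.38) in Spdef, 0.31 (SE 0.35) in Atoh1 and 0.09 (SE 0.36) in Muc4. Retnlb and Muc13 stayed below 0, at -0.81 (SE 1.01) and -0.18 (SE 0.20). Again 0 of 10 members were called, with limma adjusted p from 0.797 to 0.995, while 1.04% of the 19466 genes then tested were called.

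Under the grouping of the heat map the difference of arrays 6, 7 and 8 minus arrays 5, 10 and 11 was above 0 in 4 members, against 36.2% of all genes, and below 0 in 6, against 63.8%. It was 0.86 (SE 0.84) in Fcgbp, 0.65 (SE 0.95) in Zg16, 0.34 (SE 0.50) in Atoh1 and 0.17 (SE 0.39) in Muc2, and between -0.50 and -0.04 in the other 6. Here too 0 of 10 members were called, against 0.0259% of 19298 genes.

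**Figure D3:**
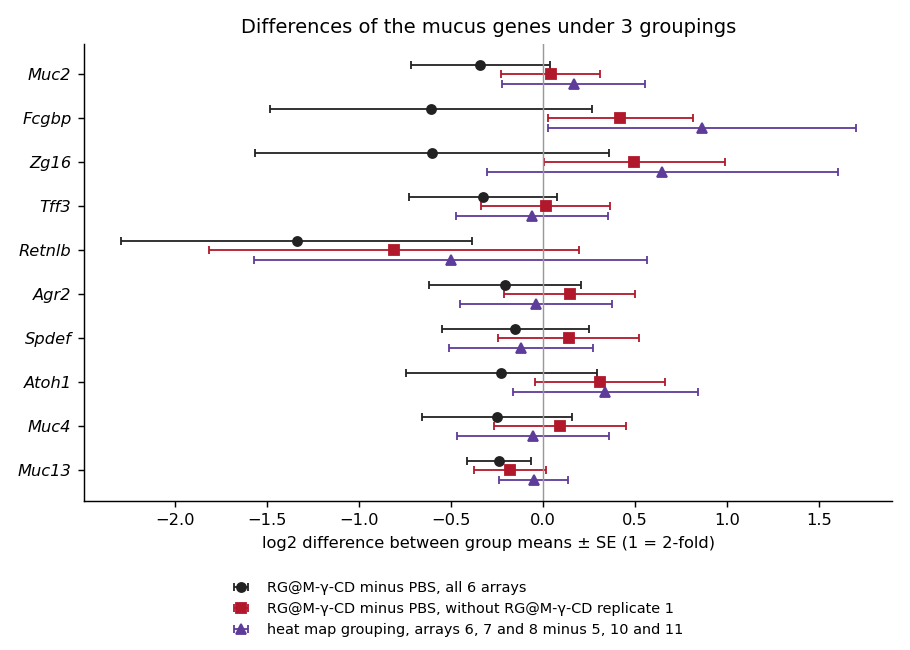
Mean log2 difference ± SE of each mucus gene for RG@M-γ-CD minus PBS with all 6 arrays (black), the same without RG@M-γ-CD replicate 1 (red), and the heat map grouping, arrays 6, 7 and 8 minus 5, 10 and 11 (purple). All 10 black points lie left of 0, and 8 of the 10 red points lie right of it.

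A second look at the same genes came from their further probes. The Muc2 probe at base 1986, dimmer by its intensity of 336 to 1329 units where the bright probe read 95390 to 168643, measured -0.68, 1.77 and 0.70 in the RG@M-γ-CD mice and 0.41, 1.62 and 1.44 in the PBS mice. It ordered the 2 lowest arrays as the bright probe did, and its range of 2.45 was wider than the 1.52 of the bright probe. Its mean difference was -0.56 (SE 0.65).

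The further Fcgbp probe (base 3493 of another transcript, chr7:28873024-28873083, mm9, plus strand) measured -2.89, 2.05 and 0.65 in the RG@M-γ-CD mice and 0.60, -0.19 and 0.55 in the PBS mice. RG@M-γ-CD replicates 1 and 2 were again lowest and highest, now 4.94 log2 units apart. The mean difference of -0.38 (SE 1.18) became 1.03 (SE 0.47) without replicate 1, with a limma adjusted p of 0.536 over all probes, so the probes of Fcgbp agreed on which mouse was lowest and not on the size.

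Muc4 had 3 tested probes, at bases 11077, 10251 and 9726, with mean differences of -0.25, -0.27 and -0.35 and RG@M-γ-CD replicate 1 lowest in all 3. A further Muc4 probe, designed to a transcript of its own and with no mapped position, did not rise well above background on a single array and was not tested. The pair of Muc13 probes, at bases 2864 and 2418, gave -0.24 and -0.31. Over all, 15 of the 16 member probes were tested and 0 were called, as were 0% of 28291 probes.

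**Figure D4:**
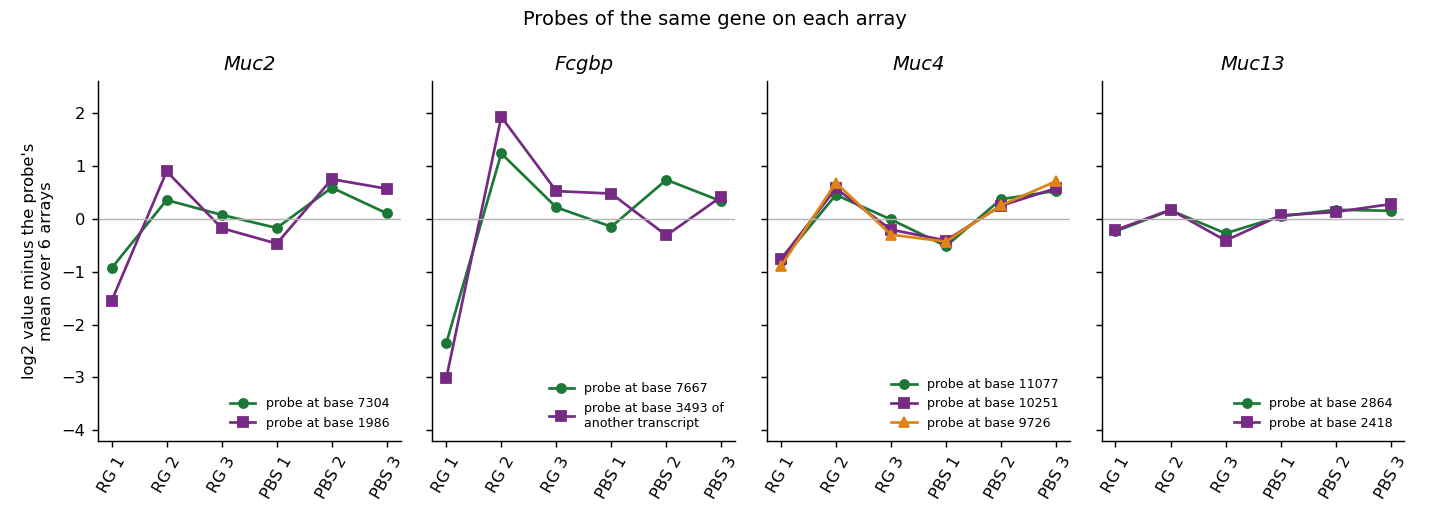
Log2 value of each tested probe of Muc2, Fcgbp, Muc4 and Muc13 on each array minus that probe's mean over the 6 arrays (vertical axis), with RG for RG@M-γ-CD and probes named by their first base in the transcript. Probes of a gene run alike from array to array; the 2 Fcgbp probes part at PBS replicate 2, and the dimmer Muc2 probe swings more widely than the brighter.

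Among the members, Tff3 followed Muc2 most closely over the 6 arrays. The root mean square difference of their centred log2 values was 0.14. Agr2 followed at 0.19, Muc4 at 0.25, Atoh1 at 0.26, Spdef at 0.31 and Muc13 at 0.38, then Fcgbp at 0.69 and Zg16 at 0.79, whose swings were wider, and Retnlb at 1.20. Among the 18102 tested genes outside the members that were well above background on all arrays, the nearest to Muc2 were Krtap19-5 (0.13), Gm11937 (0.14), Mgmt (0.14), the expressed sequence CF546364 (0.15) and 1 lincRNA (0.15). With 6 arrays and this many genes, such closeness is a description only.

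The other proteins of the goblet granule split into 2 patterns. Of 10 such genes 9 were on the array and 8 were tested. All 8 lay below 0 in RG@M-γ-CD against PBS, where 52.8% of all genes did, with a median difference of -0.42 and 0 called. Of these, 5 were lowest in RG@M-γ-CD replicate 1, against 18.8% of all genes: Clca1, Klk1, Sval1, Tpsg1 and Spink4. Clca1, a metalloprotease that is among the most abundant mucus proteins and is named here after its values were seen, measured 4.25, 7.64 and 6.82 in the RG@M-γ-CD mice and 5.96, 7.17 and 7.13 in the PBS mice. Tpsg1, a tryptase, had the difference nearest 0 in this list, -0.07 (SE 0.50).

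In the remaining 3, Itln1, Ang4 and Tff1, RG@M-γ-CD replicates 2 and 3 were the lowest arrays and replicate 1 lay within the range of the PBS mice or, for Itln1, just above it. Itln1, an intelectin that binds microbial sugars, measured 6.87, 4.33 and 4.01 in the RG@M-γ-CD mice and 6.01, 6.41 and 6.86 in the PBS mice, a mean difference of -1.35 (SE 0.75, limma adjusted p = 1.0). Ang4, an antimicrobial ribonuclease, measured 3.96, 1.87 and 1.59 against 2.71, 3.53 and 4.85, a mean difference of -1.22 (SE 0.78). Without RG@M-γ-CD replicate 1, Itln1 was the 1 gene of this list that was called: it fell by 2.26 (limma adjusted p = 0.0379, 2 mice against 3), where 0.2% of all genes were called lower.

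The other mucins also held both patterns. Of 12 listed, 9 were on the array and 4 were tested. Muc1, a membrane mucin often raised in carcinomas, measured 0.16, -1.76 and -1.22 in the RG@M-γ-CD mice and -0.18, 0.63 and 0.52 in the PBS mice, a mean difference of -1.26 (SE 0.51, unadjusted p = 0.0455 and adjusted p = 1.0 by limma). Muc3a, a membrane mucin of the brush border, measured 2.14, 4.68 and 3.99 against 3.33, 3.61 and 3.76, with a mean difference of 0.04 (SE 0.62). Muc5ac, Muc5b, Muc6 and Muc15, of which Muc5ac and Muc6 are gastric mucins, were well above background on 0 of the 6 arrays.

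**Figure D5:**
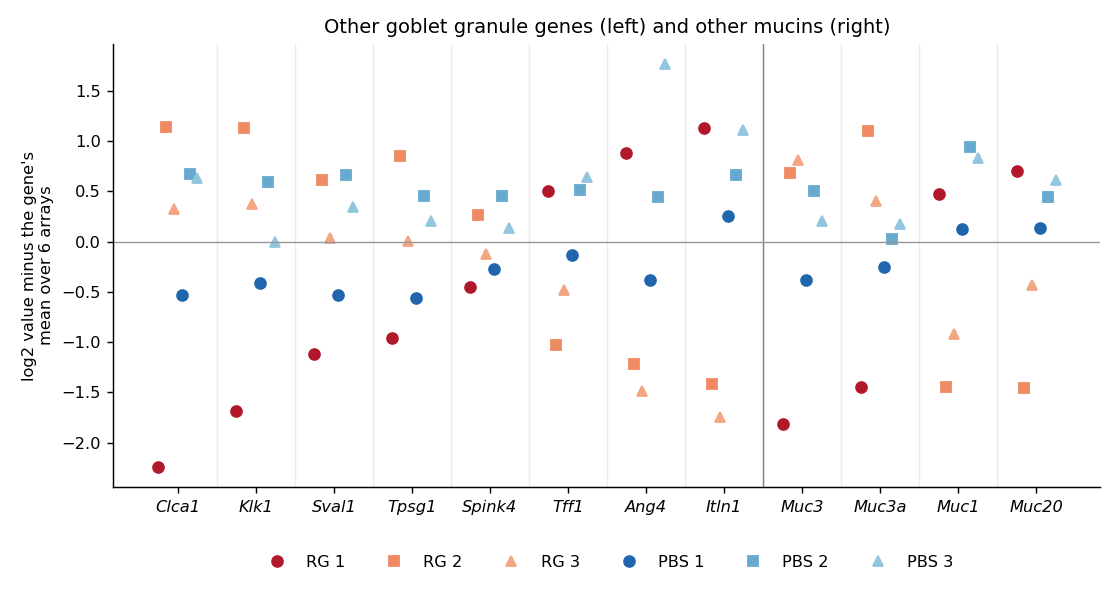
Log2 value of each tested gene of the other goblet granule proteins (left of the dark line) and other mucins (right) on each array minus that gene's mean over the 6 arrays (vertical axis), with RG for RG@M-γ-CD. RG@M-γ-CD replicate 1 (dark red) is lowest in Clca1, Klk1, Sval1, Tpsg1, Spink4, Muc3 and Muc3a, and RG@M-γ-CD replicates 2 and 3 (orange) are lowest in Tff1, Ang4, Itln1, Muc1 and Muc20.

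No gene of the machinery that makes mucin was called. Of 15 mucin glycosylation enzymes tested, 5 lay above 0 and 10 below, with a median of -0.12 and 0 called. Fut2, the fucosyltransferase that caps mucin sugars, measured -2.30, -2.23 and -2.52 in the RG@M-γ-CD mice and -1.96, -1.79 and -1.32 in the PBS mice. All 3 RG@M-γ-CD mice lay below all 3 PBS mice, with a difference of -0.66 (SE 0.21, unadjusted p = 0.0194 and adjusted p = 1.0 by limma). The groups did not overlap in 2 of the 15 enzymes, Fut2 among them, against 4.57% of all genes. B4galnt2, which adds N-acetylgalactosamine to mucin chains, had the highest difference, 0.29 (SE 0.40).

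Of 15 tested genes of the goblet cell secretory pathway, 8 lay above 0 and 7 below, with a median of 0.02 and 0 called. In 11 of these 15, RG@M-γ-CD replicate 1 was the lowest array, against 18.8% of all genes. Best2, a bestrophin channel of colonic goblet cells, spanned 2.57, 5.41 and 3.75 in the RG@M-γ-CD mice and 3.50, 3.74 and 3.21 in the PBS mice, with a difference of 0.43 (SE 0.67). Xbp1, the transcription factor of the unfolded protein response, lay at the other end with -0.27 (SE 0.17).

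Beside Atoh1 and Spdef, 10 secretory differentiation factors were tested, 4 above 0 and 6 below, with a median of -0.03 and 0 called. Their ends were Klf4, a goblet cell maturation factor, at 0.19 (SE 0.41), and Sox4 at -0.38 (SE 0.38). In 2 of these 10, RG@M-γ-CD replicate 1 was lowest, close to its share of 18.8% over all genes. All 8 tested genes of Notch signaling lay above 0, where 9003 of all 19090 genes did. They are receptors, ligands, the DNA-binding factor and targets of the pathway that represses Atoh1. Their median was 0.14, and 0 were called. Hey1, a Notch target, measured 1.52, 0.24 and 2.74 in the RG@M-γ-CD mice and 0.40, 1.11 and 0.33 in the PBS mice, a difference of 0.89 (SE 0.61), and Notch1 lay nearest 0 at 0.05 (SE 0.49).

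The levels of other cells in the pieces were measured beside these. All 11 epithelial markers were tested, and their mean lay at 6.28, 6.25 and 6.58 in the RG@M-γ-CD mice and at 6.02, 6.62 and 6.52 in the PBS mice. On this list RG@M-γ-CD replicate 1 was not the lowest array, and its median distance from the other 5 was -0.02, against -1.07 in the mucus genes. When the arrays were scaled on these epithelial markers instead of the 75th percentile, Zg16 in RG@M-γ-CD replicate 1 still lay 2.88 log2 units below the other 5 arrays, Fcgbp 2.71 below and Muc2 1.0 below, and the 10 differences between the groups stayed below 0, from -1.32 to -0.13, with 0 called.

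Other lists moved with the low array. RG@M-γ-CD replicate 1, lowest in 18.8% of all genes, was lowest in 5 of 9 absorptive colonocyte markers. Their mean was 2.18 there and 3.10 to 4.23 on the other arrays. RG@M-γ-CD replicate 1 was instead the highest array in Guca2b, at 3.49, and in Slc9a3, at 5.27. It was lowest in all 7 tested smooth muscle markers, with a mean of 2.99 there, 5.65 and 5.96 in RG@M-γ-CD replicates 2 and 3, and 3.75 to 4.09 in the PBS mice. It was also lowest in 5 of 7 fibroblast markers, whose mean was 2.16 there and 2.69 to 3.22 on the other arrays. Of 6 neutrophil markers the mean was 1.79 in RG@M-γ-CD replicate 1, -0.93 and -0.38 in RG@M-γ-CD replicates 2 and 3, and 0.76 to 1.64 in the PBS mice. This mean includes Cxcr2 and Mmp8, each well above background on at most 4 arrays. In 1 of the 6, Csf3r, the order differed, with 5.02, 6.25 and 5.30 in the RG@M-γ-CD mice and 6.01, 5.19 and 5.18 in the PBS mice. The log2 of the summed levels was 6.63, 6.32 and 5.55 against 6.69, 5.89 and 6.44. Without RG@M-γ-CD replicate 1, limma called 5 of 8 tested smooth muscle markers higher (Myh11, Acta2, Cnn1, Tagln and Smtn, adjusted p from 0.0300 to 0.0311) and 1 of 7 fibroblast markers higher (Lum, adjusted p = 0.0382), where 0.837% of all genes were called higher. It called 2 of 6 neutrophil markers lower (Cxcr2, adjusted p = 0.0332, and S100a9, adjusted p = 0.0402), where 0.2% of all genes were called lower. Cxcr2 measured -6.46 and -5.91 in RG@M-γ-CD replicates 2 and 3, so its call rests on values near background in those 2 mice. The markers singled out here are named after their values were seen. The part of these cells in the mucus gene values was not tested.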

How the data were processed

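Per the labels and the study's methods, total RNA was measured on one-color Agilent arrays read with Agilent Feature Extraction 10.7.1.1. The deposited scanner files hold the intensity of each spot, background-subtracted by the authors' software and not normalized between arrays. The authors' table holds log2 values per probe (correlation with the scanner intensities at least 0.999) and served as an alternative. Build of the probe positions: mm9, per the file headers.

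Control spots and 790 outlier spots were left out, log2 intensities were averaged over the spots of a probe and set relative to their array's 75th percentile. Symbols of 32994 probes came from the reference gene table through their accession. A probe was tested where all 3 arrays of at least 1 group read it well above background, each gene by its brightest probe, with limma 3.58.1 (lmFit, eBayes) in R 4.3.3 and Benjamini-Hochberg adjustment over all genes. The fit was tested on simulated data. The precision is limited by 3 arrays per group. p-values measure the spread between mice. Members and gene lists were chosen with earlier results of these data known. Named in the text are all members, the genes of the 6 lists of other mucins, granule proteins, glycosylation, secretory pathway, differentiation and Notch at an unadjusted p below 0.05 or with a log2 difference of at least 1 in size, the gene at each end of such a list, and the 5 genes nearest to Muc2. Outside this rule, Clca1, Klk1, Sval1, Spink4, Tff1, Muc3 and Muc20 are named for their order of arrays, after their values were seen. Muc5ac, Muc5b, Muc6 and Muc15 are named as not above background. Marker lists of fibroblasts, leukocytes, exocrine pancreas and squamous epithelium were also measured, with median differences of 0.07, -0.62, -0.44 and -0.52 and 0 genes called in each with all 6 arrays.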

Additional observations from a re-analysis of the deposited data

How the results depend on the processing

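The count of mucus genes called was 0 of 10, and that of their probes 0, under each alternative run: quantile normalization, normexp background correction (offset 50), the mean of a gene's probes (genes only), no or a 6-array filter on dim probes, the value table of the authors, outlier spots kept, scaling on epithelial markers, the methods' t-test, the slide row in the model, the heat map grouping and leaving out each array. The methods' t-test at their fold and p threshold held 45 of all genes and 0 members. Over all genes 0 were called in the main fit, 5 under the heat map grouping, and 0 to 202 when 1 array was left out, the 202 without RG@M-γ-CD replicate 1. The scaling, filter, background, probe and t-test alternatives turned no member's sign. With the slide row in the model 7 turned: Agr2 0.45, Atoh1 0.22, Muc2 0.0057, Muc4 0.39, Spdef 0.54, Tff3 0.28 and Zg16 0.32. Only PBS replicate 1 then shares a row with RG@M-γ-CD arrays. The heat map grouping turned Muc2 (0.17), Fcgbp (0.86), Zg16 (0.65) and Atoh1 (0.34). Leaving out 1 array gave Muc2 -0.60 to 0.042, Fcgbp -1.37 to 0.42, Zg16 -1.18 to 0.50, Tff3 -0.63 to 0.015, Agr2 -0.54 to 0.15, Spdef -0.50 to 0.14, Atoh1 -0.71 to 0.31, Muc4 -0.57 to 0.092, Retnlb -2.01 to -0.37 and Muc13 -0.38 to -0.16. The positive ends are without RG@M-γ-CD replicate 1. Agr2 also came to 0.02 without PBS replicate 2 and Spdef to 0.09 without PBS replicate 3. The cause was not tested.

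Replicate numbers do not pair the mice (correlations of same-numbered deviations -0.25, -0.23 and 0.14). With the replicate number as a block, 0 members, 0 of their probes and 0 genes were called.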
